A study of Homo sapiens with 6 samples.

Results

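HOX genes of the 4 chromosomal clusters were examined in the breast cancer line MDA-MB-231, here the parental line, and its variant 231-BR. All genes whose symbol consists of HOX, a cluster letter from A to D and a number were taken, which gave 28 of the 17039 genes listed: 4 of HOXA, 9 of HOXB, 7 of HOXC and 8 of HOXD. Other HOX genes were not analysed here. MDA-MB-231 is a human triple negative line obtained from ATCC, and 231-BR is a variant of it that homes to the brain, a gift of another laboratory. Both were grown in DMEM with serum and antibiotics, and the medium of 231-BR cells also held G418. Poly(A) RNA of 3 libraries of each line was sequenced as paired reads of 100 bases. Origin and medium differ together with the line and cannot be told apart from it. A label field numbers the samples of each line 231, 232 and 233 within the name of the line, and the libraries were grouped by their titles. The labels call the samples independent without naming separate cultures, so that the p-values measure the spread between these samples, which may be technical.

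HOX genes encode transcription factors that bind DNA through the homeodomain. In the embryo they are switched on in the order in which they lie along each cluster and so give cells their position along the body axis. The number in a gene's name places it in a paralog group, with low numbers for anterior and high numbers for posterior genes. Adult cells keep a part of this pattern, in which Polycomb proteins hold clusters silent and Trithorax proteins keep them active. Several HOX genes, HOXB7 and HOXB9 among them, have been studied in the growth and invasion of breast cancer cells.

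The sequence that HOX genes share is the homeobox, 180 bases that code for the homeodomain. The homeoboxes of 3 genes are shown because HOXB9 was the most expressed HOX gene of 231-BR cells, and because paralog 6 was measured in both HOXB and HOXC. They were read from GENCODE release 29 transcripts, 5′ to 3′, and capitals mark the part that codes for the third helix of the homeodomain, which contacts DNA.
HOXB9: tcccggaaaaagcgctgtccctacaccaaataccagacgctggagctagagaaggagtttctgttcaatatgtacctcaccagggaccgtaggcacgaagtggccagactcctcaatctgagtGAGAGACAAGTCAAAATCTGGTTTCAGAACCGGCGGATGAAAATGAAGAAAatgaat
HOXB6: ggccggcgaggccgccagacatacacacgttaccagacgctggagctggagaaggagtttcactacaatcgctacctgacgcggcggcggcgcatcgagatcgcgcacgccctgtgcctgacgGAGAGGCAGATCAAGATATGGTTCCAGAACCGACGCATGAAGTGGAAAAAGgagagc
HOXC6: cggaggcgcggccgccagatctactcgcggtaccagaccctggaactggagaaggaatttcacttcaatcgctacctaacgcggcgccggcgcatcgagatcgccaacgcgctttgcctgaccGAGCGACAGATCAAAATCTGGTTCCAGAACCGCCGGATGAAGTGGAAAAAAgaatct
HOXB6 and HOXC6 differ at 31 of the 180 bases (82.8% identity). Over the 22 pairs of listed genes with the same paralog number, the identity of the homeobox ran from 69.4% to 90.6%. The longest stretch that a tested HOX gene shared letter for letter with a transcript of another cluster was 62 bases, between HOXB3 and HOXD3, and 23 to 40 bases for the other tested genes. None of these stretches spans a read of 100 bases.

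Expression was given by the authors as FPKM (fragments scaled to the length of the transcript and to the number of mapped reads), a scale per length on which levels of different genes can be compared. The files used here give no read counts, so the depth is unknown, and intervals that would need it are left out. The summed FPKM ran from 465020 to 472007 in the 231-BR libraries and from 486937 to 496420 in the parental libraries. As a check of the lines, the mesenchymal marker VIM had 2537 to 2566 FPKM in 231-BR cells against 2273 to 2325 FPKM in parental cells, and the epithelial cadherin CDH1 stayed at or under 0.03 FPKM in all 6 libraries. ESR1 stayed between 0.74 and 1.08 FPKM, and PGR at or under 0.07 FPKM. CD44, a surface marker of mesenchymal breast cancer cells, was lower in 231-BR cells (176.9 to 184.6 against 248.1 to 253.4 FPKM), and ERBB2, the receptor HER2, was higher (9.61 to 10.23 against 4.75 to 5.08 FPKM). The 4 markers of other cell types that could be read (PTPRC, PECAM1, GFAP and RBFOX3) summed to 0.53 to 0.68 FPKM in 231-BR cells against 0.17 to 0.24 FPKM in parental cells, and PTPRC was listed at 0 in every parental library. Their part in the HOX results was not tested. In such bulk RNA, fewer cells that express a gene and less RNA per cell cannot be told apart.

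HOX expression was higher in 231-BR than in parental cells in HOXB and HOXC, near its level in parental cells in HOXD, and close to 0 in both lines in HOXA. The FPKM of all 28 genes summed to 39.29, 38.35 and 37.89 in the 231-BR libraries and to 13.65, 13.48 and 13.43 in the parental libraries. The HOXB sum was 21.85 ± 0.235 FPKM in 231-BR cells against 4.247 ± 0.261 FPKM in parental cells (SD, n = 3 each), 5.14 times as high. The HOXC sum was 8.26 ± 0.0529 FPKM against 1.87 ± 0.295 FPKM (SD, n = 3 each), 4.42 times as high. In the sums of HOXB, HOXC and HOXD, every 231-BR library lay above every parental library. The HOXD sum was 8.31 ± 0.505 FPKM in 231-BR cells against 7.30 ± 0.435 FPKM in parental cells (SD, n = 3 each), a difference of 1.01 FPKM between the means that is larger than either SD and that turned around after quantile normalization (7.55 against 8.12 FPKM). HOXB held 70.4% of the difference between the lines in the total sum and HOXC held 25.6%, and HOXB9 alone held 39.7%. Of the summed HOX FPKM, HOXD made up 54.0% in parental cells and 21.6% in 231-BR cells, whereas HOXB made up 31.4% and 56.7%.

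**Figure D1:**
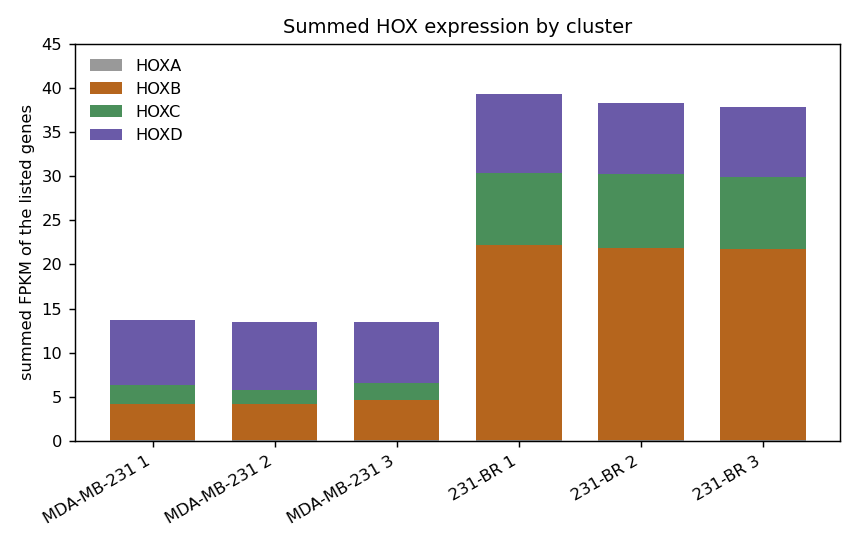
Stacked bars give the summed FPKM of the listed HOX genes in each of the 6 libraries, with a colour for each cluster. The 3 bars of 231-BR cells reach 37.89 to 39.29 FPKM and those of parental cells 13.43 to 13.65 FPKM, and the HOXA segments are too small to be seen.

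For the comparison of single genes, log2(FPKM + 0.1) was fitted with limma for the 13470 genes with a mean of at least 0.1 FPKM over the 6 libraries, and p-values were adjusted over all of them. Fold changes set 231-BR over the parental line on this scale, which draws genes with a low FPKM toward 0. Of the 28 HOX genes, 15 were tested, of which 12 had an adjusted p under 0.05 with the higher value in 231-BR cells. Over all genes tested, 44.4% were called higher. HOXD3 was called lower, where 32.9% of all genes were, and HOXC9 and HOXD4 did not pass the test. In either direction, 77.3% of all genes tested were called. For the 15 genes the median of the log2 fold changes was 2.0, against 0.08 over all genes tested. It depended on the pseudocount, and was 0.80 with a pseudocount of 1, where the median of all genes was 0.06. Among the 15, HOXB3, HOXB4, HOXB5, HOXB6 and HOXB8 had a mean under 0.1 FPKM in parental cells, so that they entered the test through 231-BR cells, and these counts and medians lend no support of their own. Over all 28 genes, every 231-BR library was above every parental library for 13 genes and below for 2, where 37.9% and 27.8% of all listed genes were.

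**Figure D2:**
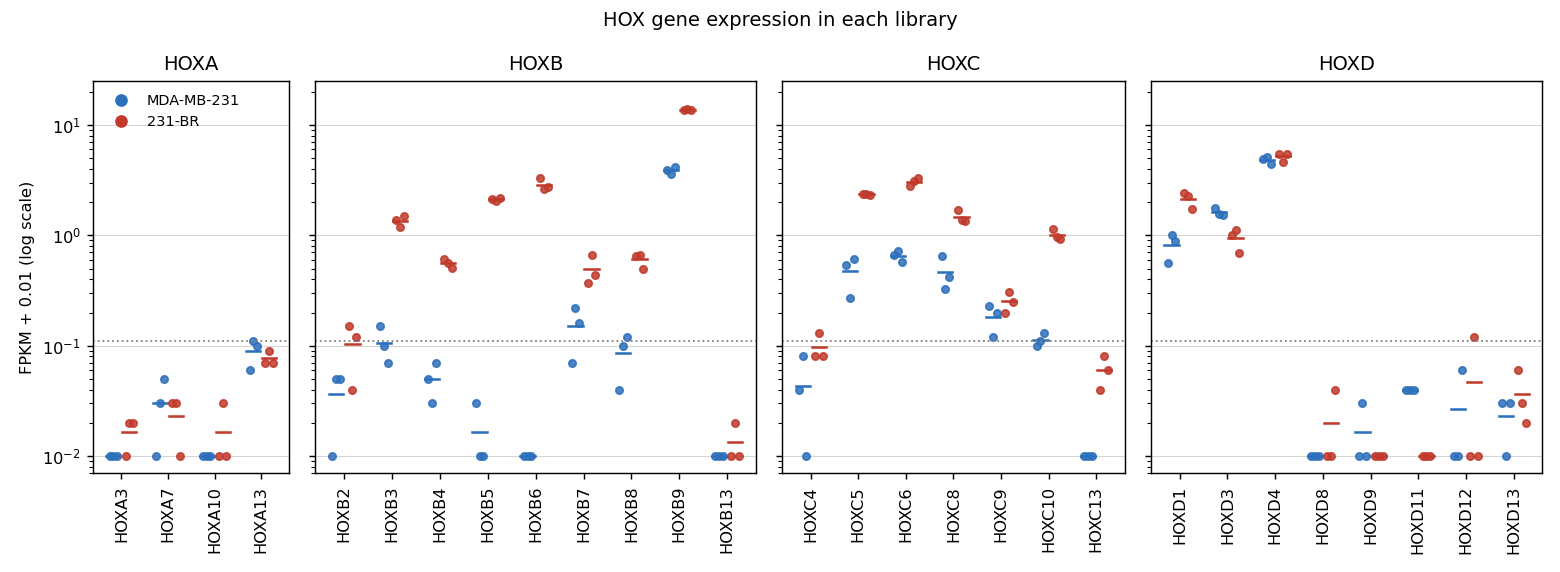
Each dot is the FPKM of a library plus 0.01 on a log scale, with bars at the group means, for the 28 HOX genes in order of paralog number. The dotted line lies at 0.1 FPKM, and from HOXB3 to HOXB9 the red dots (231-BR) lie above the blue dots (MDA-MB-231), while the 4 HOXA genes stay at or under 0.1 FPKM.

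HOXB genes lie on chromosome 17, and of those listed HOXB2 is the most anterior and HOXB13 the most posterior. All 7 tested genes of the cluster, HOXB3 to HOXB9, rose in 231-BR cells, with no overlap between the libraries of the lines for any of them. Of all genes tested 44.4% were called higher, and 37.9% of all listed genes had every 231-BR library above every parental library. HOXB3, HOXB4, HOXB5, HOXB6 and HOXB8 entered the test through 231-BR cells, so that the counts in this cluster lend no support of their own. In GENCODE release 29 (GRCh38) the 7 tested genes span 84703 bases, from 48548870 to 48633572, and the positions of genes below come from the same annotation. The genes at the ends of the listed set were low in both lines. HOXB2, a gene of the hindbrain, had 0.14, 0.03 and 0.11 FPKM in 231-BR cells against 0, 0.04 and 0.04 FPKM in parental cells. HOXB13, a posterior gene known for its role in the prostate, was listed at 0 in all libraries but a single 231-BR library with 0.01 FPKM.

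HOXB9 (gene ID 3219, chr17:48621159-48626356, minus strand), which patterns the thoracic region and the mammary gland, had the highest level of the HOX genes in 231-BR cells. Its FPKM was 13.59, 14.03 and 13.73 in 231-BR cells and 3.87, 3.59 and 4.12 in parental cells. The log2 fold change was 1.81 (standard error, SE, 0.056, adjusted p = 1.3e-09 from limma). HOXB9 was the HOX gene that met all criteria of the study for differentially expressed genes, that is, p after adjustment below 0.05, a log2 fold change beyond 1 in size and an FPKM of at least 1, taken here for the means of both lines. The adjusted p was that of limma here, where the study used DESeq2, so that the genes called can differ from those of the study. Over all genes tested, 4.68% met the criteria as higher and 1.77% as lower in 231-BR cells. When the mean of a single line had to reach 1, 9 HOX genes met the criteria, all higher in 231-BR cells, of which 8 reached this mean through 231-BR cells and HOXB9 through both lines, where 8.06% of all genes tested did so with higher and 2.9% with lower expression. HOXB9 made up 90.9% of the HOXB sum in parental cells and 63.1% in 231-BR cells.

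HOXB6 and HOXB5 were the HOXB genes with the next highest levels in 231-BR cells, and both were at or near 0 in parental cells. HOXB6 (gene ID 3216, chr17:48595751-48604992, minus strand) had 3.28, 2.62 and 2.71 FPKM in 231-BR cells and was listed at 0 in all 3 parental libraries (adjusted p = 7.3e-10 from limma). No fold change is given for it, because it would depend on the pseudocount. HOXB5 (gene ID 3215, chr17:48591257-48593961, minus strand), which acts in the development of vessels and of the enteric nervous system, had 2.14, 2.04 and 2.19 FPKM in 231-BR cells against 0.02, 0 and 0 FPKM in parental cells. On the scale of the fit its log2 fold change was 4.39 (SE 0.142, adjusted p = 1.8e-09 from limma), and a pseudocount of 1 or 0.01 moved it to 1.63 or 7.21. Every 231-BR library thus held over 2 FPKM of both genes and no parental library held more than 0.02. Of the exon bases of HOXB6, 22.1% also belong to annotated exons of HOXB3 on the same strand, and 15.6% face exons of the antisense gene HOXB-AS3. The library protocol describes no strand marking, and how the authors divided such reads is not given in the sources used here. For HOXB5 the part that faces HOXB-AS3 was 3.6%.

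HOXB3 (gene ID 3213, chr17:48548870-48604912, minus strand), a gene of the anterior group, had 1.36, 1.17 and 1.5 FPKM in 231-BR cells against 0.14, 0.09 and 0.06 FPKM in parental cells. Its log2 fold change was 2.89 (SE 0.177, adjusted p = 1.7e-07 from limma). The other 3 genes stayed under 1 FPKM in both lines. HOXB4, known for its role in blood stem cells, had a mean of 0.55 FPKM against 0.040 (log2 fold change 2.22, adjusted p = 1.3e-06), and HOXB8 had 0.597 against 0.077 FPKM (2.0, adjusted p = 1.1e-05). A pseudocount of 1 or 0.01 moved the log2 fold change of HOXB3 to 1.09 or 3.73, that of HOXB4 to 0.58 or 3.57 and that of HOXB8 to 0.57 or 2.94. HOXB7 had the smallest fold change of the cluster, with 0.36, 0.66 and 0.43 FPKM in 231-BR cells against 0.06, 0.21 and 0.15 FPKM in parental cells (log2 fold change 1.30, SE 0.271, adjusted p = 0.0014 from limma), which a pseudocount of 1 or 0.01 moved to 0.38 or 1.82.

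Of the 8 genes tested that flank HOXB on chromosome 17, 5 rose and none fell, where 44.4% and 32.9% of all genes tested did, with a median log2 fold change of 0.28. SKAP1, the neighbour on the anterior side, was singled out after its values were seen. It had a mean of 0.31 FPKM in 231-BR cells and was listed at 0 in every parental library. SKAP1 thus entered the test through 231-BR cells, so that the count of flanking genes lends no support of its own. Apart from SKAP1, the flanking genes had log2 fold changes from -0.01 for COPZ2 to 0.55 for CBX1.

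**Figure D3:**
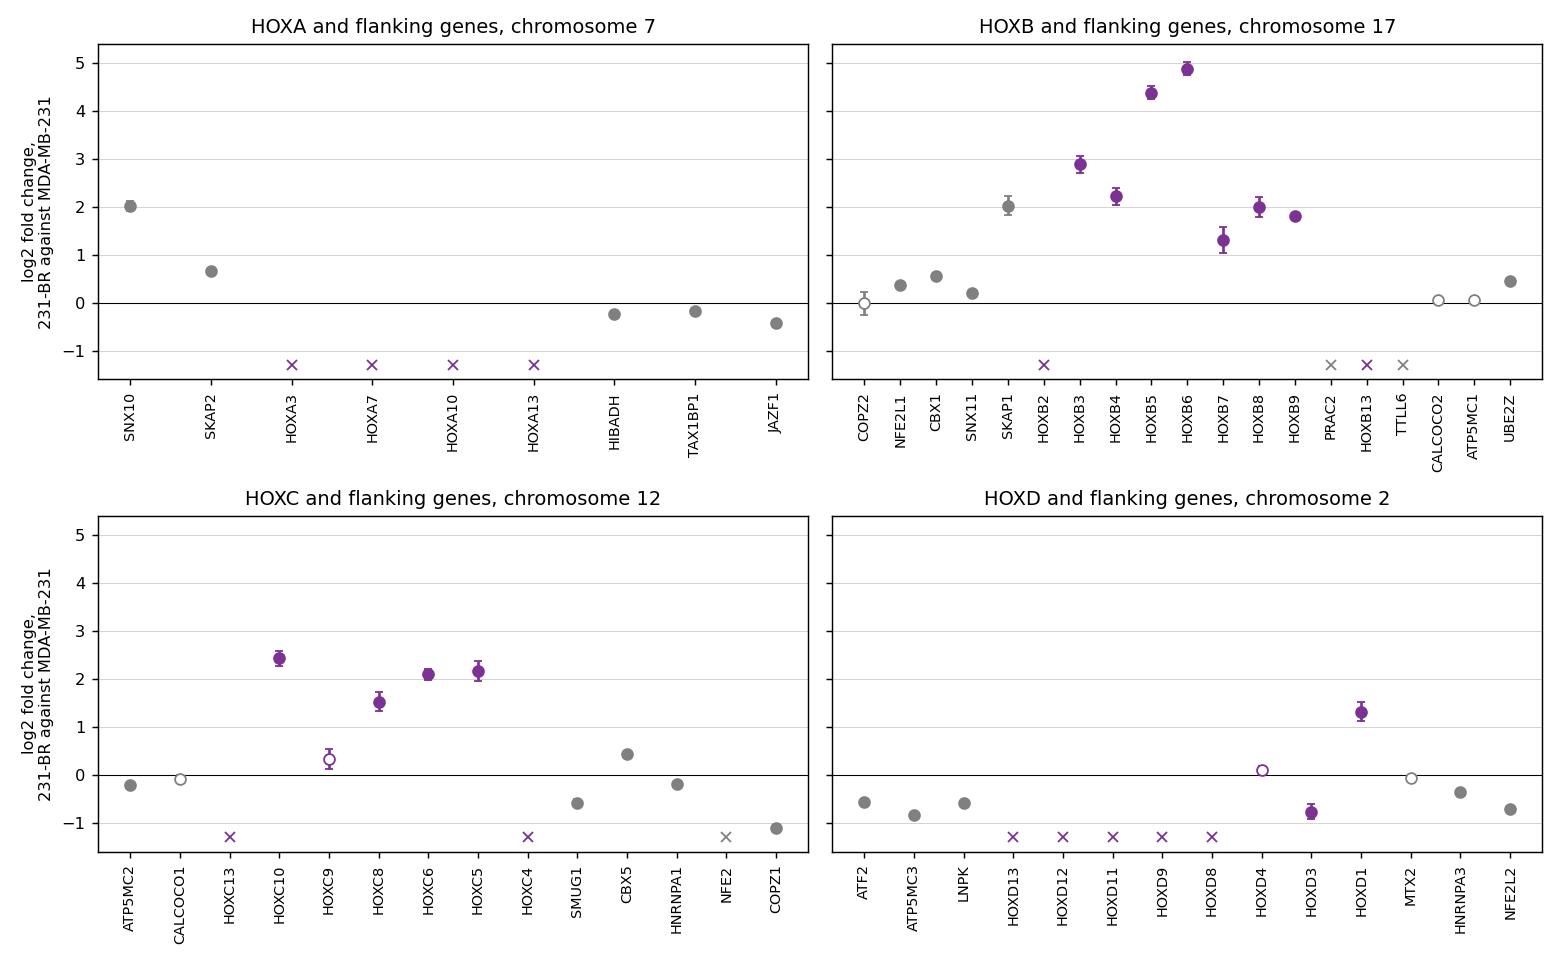
Log2 fold changes on the log2(FPKM + 0.1) scale, with SEs, are drawn in gene order for the HOX genes (purple) and flanking genes (grey) of each chromosome; filled dots have an adjusted p under 0.05, and crosses at the bottom mark genes that were not tested. The fitted values of HOXB6 and SKAP1, which are listed at 0 in parental cells, depend on the pseudocount. HOXB3 to HOXB9 form an unbroken run of filled dots from 1.30 upwards.

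HOXC genes lie on chromosome 12. HOXC5, HOXC6, HOXC8 and HOXC10 rose in 231-BR cells, each with every 231-BR library above every parental library, and HOXC9 between them did not pass the test. Of all genes tested 44.4% were called higher, and 37.9% of all listed genes had every 231-BR library above every parental library. The 4 HOXC genes that rose were above 0 in every parental library. HOXC6 (gene ID 3223, chr12:53990624-54030823, plus strand), a thoracic paralog of HOXB6 that responds to sex hormones in several tissues, had 2.77, 3.12 and 3.30 FPKM in 231-BR cells against 0.65, 0.71 and 0.56 FPKM in parental cells (log2 fold change 2.10, SE 0.109, adjusted p = 5e-08 from limma). HOXC5 (gene ID 3222, chr12:54032853-54035358, plus strand) had 2.34, 2.38 and 2.32 FPKM in 231-BR cells against 0.53, 0.26 and 0.60 FPKM in parental cells (log2 fold change 2.18, SE 0.213, adjusted p = 5.8e-06 from limma). HOXC8 (gene ID 3224, chr12:54009106-54012362, plus strand), which acts in the development of the thorax, had 1.68, 1.38 and 1.35 FPKM against 0.64, 0.32 and 0.41 FPKM. Its log2 fold change of 1.53 (SE 0.194, adjusted p = 4.1e-05 from limma) was the smallest of the 4 genes that rose. HOXC10 (gene ID 3226, chr12:53985065-53990279, plus strand), a lumbar and hindlimb gene, had 1.14, 0.95 and 0.91 FPKM in 231-BR cells against 0.09, 0.10 and 0.12 FPKM in parental cells (log2 fold change 2.43, SE 0.148, adjusted p = 1.6e-07 from limma). This was the highest of the cluster with a pseudocount of 0.1, but with a pseudocount of 1 it was 0.86, below HOXC6 (1.31) and HOXC5 (1.20).

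HOXC9 had a mean of 0.243 FPKM in 231-BR cells against 0.173 FPKM in parental cells, and the libraries overlapped (log2 fold change 0.34, SE 0.214, adjusted p = 0.17 from limma). HOXC13, a gene of hair and nail, had 0.03, 0.07 and 0.05 FPKM in 231-BR cells and was listed at 0 in every parental library. HOXC4 had 0.07, 0.12 and 0.07 FPKM in 231-BR cells against 0.03, 0.07 and 0 FPKM in parental cells. RefSeq gives HOXC4 and HOXC5 the same start, so that the window of 250 bases before and 50 after it, printed with CpG pairs in capitals, serves both genes. GENCODE release 29 starts HOXC5 further downstream, at the position given above. The window lies on the plus strand of GRCh38.p14 at chr12:54016638-54016937.
HOXC4 and HOXC5: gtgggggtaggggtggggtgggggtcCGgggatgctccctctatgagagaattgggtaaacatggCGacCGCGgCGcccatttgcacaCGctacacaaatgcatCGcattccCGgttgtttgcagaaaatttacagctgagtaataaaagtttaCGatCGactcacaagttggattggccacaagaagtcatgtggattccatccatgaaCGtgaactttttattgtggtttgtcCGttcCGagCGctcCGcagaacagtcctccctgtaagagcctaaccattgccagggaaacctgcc
Of the genes with this start, HOXC5 was listed at 2.32 to 2.38 FPKM in 231-BR cells, and HOXC4 at 0.07 to 0.12 FPKM. The genes share further sequence: 13.7% of the exon bases of HOXC6 belong to annotated exons of HOXC4 and 8.6% to those of HOXC5, and 33.9% of those of HOXC5 belong to a transcript annotated as the coding gene AC012531.2. The share of reads that the authors gave to each gene is not known. Of the 6 flanking genes tested, 1 rose and 4 fell, against 44.4% and 32.9% of all genes tested. COPZ1, a subunit of the coat of transport vesicles, fell from 128.9 ± 3.01 to 60.1 ± 1.25 FPKM (SD, n = 3 each; log2 fold change -1.10, SE 0.027, adjusted p = 2.6e-10 by limma).

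HOXD genes lie on chromosome 2, and the 3 that were tested, HOXD1, HOXD3 and HOXD4, are those at the anterior end. HOXD1 rose, HOXD3 fell and HOXD4 did not pass the test. HOXD1 (gene ID 3231, chr2:176188579-176190907, plus strand) had 2.42, 2.24 and 1.73 FPKM in 231-BR cells against 0.55, 0.99 and 0.87 FPKM in parental cells. Its log2 fold change was 1.32 (SE 0.191, adjusted p = 0.00011 from limma). HOXD3 (gene ID 3232, chr2:176136612-176173102, plus strand), which has been linked to integrin expression and invasion, had 0.99, 1.11 and 0.68 FPKM in 231-BR cells against 1.77, 1.56 and 1.53 FPKM in parental cells, without overlap. Its log2 fold change was -0.77 (SE 0.156, adjusted p = 0.0012 from limma). HOXD4 (gene ID 3233, chr2:176151222-176153226, plus strand), a hindbrain gene, was the most expressed HOX gene of parental cells, with 4.91, 5.15 and 4.38 FPKM, and had 5.42, 4.65 and 5.47 FPKM in 231-BR cells. The libraries overlapped, and its log2 fold change was 0.10 (SE 0.081, adjusted p = 0.27 by limma).

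The promoter windows of these neighbours are shown because the 3 genes lie close together, and HOXD1 rose where HOXD3 fell. They follow the starts of RefSeq, which differ from the GENCODE positions above (GRCh38.p14, plus strand, 250 bases before the start to 50 after it), with CpG pairs in capitals: HOXD4 at chr2:176151300-176151599, HOXD3 at chr2:176157057-176157356 and HOXD1 at chr2:176188418-176188717.
HOXD4: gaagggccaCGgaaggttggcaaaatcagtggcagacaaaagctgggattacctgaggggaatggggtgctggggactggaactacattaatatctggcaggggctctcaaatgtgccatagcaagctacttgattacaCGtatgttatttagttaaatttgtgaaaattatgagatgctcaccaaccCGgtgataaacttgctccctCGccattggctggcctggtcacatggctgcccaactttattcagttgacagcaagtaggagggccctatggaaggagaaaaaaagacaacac
HOXD3: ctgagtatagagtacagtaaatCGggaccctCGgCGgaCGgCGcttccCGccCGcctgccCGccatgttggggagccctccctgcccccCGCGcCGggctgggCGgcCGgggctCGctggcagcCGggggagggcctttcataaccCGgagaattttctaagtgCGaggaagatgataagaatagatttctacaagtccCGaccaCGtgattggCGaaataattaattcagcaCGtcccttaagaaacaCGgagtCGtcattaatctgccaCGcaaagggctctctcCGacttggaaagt
HOXD1: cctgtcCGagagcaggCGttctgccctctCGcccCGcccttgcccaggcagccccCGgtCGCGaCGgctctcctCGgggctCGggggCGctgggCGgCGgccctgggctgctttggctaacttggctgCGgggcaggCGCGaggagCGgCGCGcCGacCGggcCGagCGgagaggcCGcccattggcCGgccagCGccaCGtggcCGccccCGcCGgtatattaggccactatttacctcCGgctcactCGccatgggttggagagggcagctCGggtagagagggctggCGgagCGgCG
HOXD1 holds 36 CpG pairs, HOXD3 holds 25 and HOXD4 holds 4, where the median of the 35116 windows in the table was 14 and the middle of the distribution ran from 4 to 28 (25th to 75th percentile). The GC content was 74.3%, 58% and 47.3%, respectively, against a median of 58.7%. A search on both strands for TATAAA found no match in these windows or in that of HOXC4 and HOXC5, and 11.5% of all windows hold it. The HOX and PBX motif TGATTNAT was not found in them either, and 2.82% of all windows hold it. Promoter windows were matched for 13 of the 28 HOX genes, 4 of them tested. Methylation of these CpG pairs was not analysed here.

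Annotated transcripts overlap heavily at this end of HOXD. Of the exon bases of HOXD3, 87.0% also belong to the coding gene AC009336.2, which likewise holds 80.5% of the exon bases of HOXD4. Of those of HOXD1, 58.1% face exons on the opposite strand, 50.1% of AC009336.3 and 8.0% of the antisense RNA gene HAGLR. The overlaps of HOXD3 and HOXD4 with AC009336.2 lie on the same strand, so that strand would not tell reads from the shared bases apart. Reads from HOXD1 and from the genes that face it could not be told apart where strand was not kept. The other 5 HOXD genes, HOXD8, HOXD9, HOXD11, HOXD12 and HOXD13, stayed at or under 0.11 FPKM in every library. HOXD11 was listed at 0.03 FPKM in all 3 parental libraries and at 0 in all 231-BR libraries. Of the 6 flanking genes tested, 5 fell and none rose, against 32.9% and 44.4% of all genes tested, with a median log2 fold change of -0.57.

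HOXA genes lie on chromosome 7. None of the 4 listed genes, HOXA3, HOXA7, HOXA10 and HOXA13, reached the level of the test, and the highest single value was 0.10 FPKM, of HOXA13 in parental cells. HOXA13, a gene of the limb and the urogenital tract, had 0.06, 0.08 and 0.06 FPKM in 231-BR cells against 0.05, 0.10 and 0.09 FPKM in parental cells. HOXA3, HOXA7 and HOXA10 did not exceed 0.04 FPKM, and the libraries of the lines overlapped for all 4 genes. Differences of under 0.01 FPKM could not be detected with values given to 2 decimals. The flanking genes on both sides were expressed. SNX10, an endosomal protein that lies beyond SKAP2 on the anterior side, rose from 1.28 ± 0.178 to 5.45 ± 0.357 FPKM (SD, n = 3 each; log2 fold change 2.02, SE 0.10, adjusted p = 3.6e-08 by limma). In all, 2 of the 5 HOXA flanking genes rose and 3 fell, against 44.4% and 32.9% of all genes tested.

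By paralog number, the central groups 4 to 8 held the largest part of HOX expression in both lines. Of their 12 listed genes, 9 were tested, 8 rose and none fell, where 44.4% and 32.9% of all genes tested did. Among the central genes, HOXB4, HOXB5, HOXB6 and HOXB8 entered the test through 231-BR cells, so that this count lends no support of its own. The summed FPKM of the central groups was 18.8 ± 0.563 in 231-BR cells and 6.69 ± 0.330 in parental cells (SD, n = 3 each). The posterior groups 9 to 13 had 3 tested genes among 11, and 2 of these rose, against the same 44.4% of all genes. Their sum was 15.2 ± 0.325 FPKM against 4.28 ± 0.335 FPKM (SD, n = 3 each), most of it from HOXB9. The anterior groups 1 to 3 had 5 listed and 3 tested genes, of which HOXB3 and HOXD1 rose and HOXD3 fell. Of these, HOXB3 entered the test through 231-BR cells. The sum of the anterior groups was 4.50 ± 0.443 FPKM in 231-BR cells against 2.55 ± 0.117 FPKM in parental cells (SD, n = 3 each). Paralogs of different clusters could differ in direction. In group 3, HOXB3 rose while HOXD3 fell, and their summed level with HOXA3 was 2.28 FPKM in 231-BR and 1.72 FPKM in parental cells. In groups 5 and 6 the HOXB and HOXC genes rose together, and the sums were 4.47 against 0.47 FPKM and 5.93 against 0.64 FPKM. In group 9, HOXB9 rose while HOXC9 did not pass the test.

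The order of the levels changed between the lines. In parental cells HOXD4 stood first, above HOXB9 and then HOXD3, without overlap between neighbours. HOXD1, HOXC6, HOXC5 and HOXC8 followed with levels from 0.803 down to 0.457 FPKM, and each overlapped with the next. In 231-BR cells HOXB9 stood first, above HOXD4, again without overlap. HOXC6 with 3.06 FPKM and HOXB6 with 2.87 FPKM came next and overlapped, as did HOXC5, HOXD1 and HOXB5 with 2.35, 2.13 and 2.12 FPKM. Of all listed genes, 69.2% had a lower mean than HOXB9 in 231-BR cells and 49.1% in parental cells. For HOXD4 these shares were 50.9% and 52.1%.

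HOX proteins bind DNA together with cofactors of the TALE class, the PBX, MEIS and PKNOX (PREP) proteins. Of the 9 TALE genes, 8 were tested, 4 rose and 2 fell (44.4% and 32.9% of all genes tested), with a median log2 fold change of 0.16, and after quantile normalization 2 rose. PBX2, the most expressed, had 20.2 ± 0.405 FPKM in 231-BR cells against 19.8 ± 0.473 FPKM in parental cells, and PKNOX1 had 5.04 ± 0.175 against 4.74 ± 0.236 FPKM (SD, n = 3 each), and neither passed the test. PBX3 fell from 11.1 ± 0.237 to 8.43 ± 0.350 FPKM (SD, n = 3 each; log2 fold change -0.40, adjusted p = 1.7e-05 by limma). MEIS2 rose from 4.87 ± 0.235 to 5.70 ± 0.280 FPKM (log2 fold change 0.22, adjusted p = 0.0064 from limma), MEIS1 from 0.61 ± 0.079 to 1.14 ± 0.085 FPKM (0.81, adjusted p = 0.00013) and PBX4 from 1.12 ± 0.202 to 1.93 ± 0.421 FPKM (0.73, adjusted p = 0.0021), with SDs over 3 libraries. MEIS3 was singled out after its values were seen. It was lower in 231-BR cells, with 0, 0.12 and 0 FPKM in 231-BR cells against 0.80, 0.99 and 0.86 FPKM in parental cells (log2 fold change -2.91, adjusted p = 6.6e-06 from limma).

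Of genes that act on HOX clusters, the counts stand beside 44.4% higher and 32.9% lower over all genes tested. Of 17 genes of Trithorax complexes, related elongation factors and H3K27 demethylases, 7 rose and 8 fell, with a median log2 fold change of -0.05. AFF1, a scaffold of elongation complexes and a fusion partner of KMT2A in leukaemia, was the gene of this list that met the criteria of the study, with 10.9 ± 0.104 FPKM in 231-BR cells against 5.13 ± 0.373 FPKM in parental cells (SD, n = 3 each; log2 fold change 1.08, SE 0.057, adjusted p = 5.8e-08 from limma). Of 21 Polycomb genes, 10 rose and 5 fell, with a median of 0.19. RNF2, the catalytic subunit of the complex PRC1, rose from 7.71 ± 0.254 to 16.0 ± 0.582 FPKM (SD, n = 3 each; log2 fold change 1.04, SE 0.044, adjusted p = 1.2e-08 by limma), and was the gene of this list that met the criteria. All 38 genes of these lists were tested. Retinoic acid induces HOX genes from the anterior end of a cluster. Of 15 genes of the retinoid pathway, 9 were tested, 4 rose and 3 fell, with a median of 0.00, and none met the criteria. RARB, a receptor that is itself induced by retinoic acid, was singled out after its values were seen. It had 0.77, 0.69 and 0.54 FPKM in 231-BR cells against 0.05, 0.12 and 0.08 FPKM in parental cells. Its log2 fold change was 2.07 (adjusted p = 4.4e-06 from limma), and its size depends on the pseudocount. With a parental mean of 0.083 FPKM, RARB entered the test through 231-BR cells. The count of retinoid genes therefore lends no support of its own. Of the CDX, EVX and related homeobox genes, MNX1 was tested and rose from a mean of 1.51 to 2.53 FPKM (log2 fold change 0.72, adjusted p = 0.00011 from limma). RNAs antisense to the HOX clusters, HOTAIR and HOTTIP among them, were not analysed here.

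**Figure D4:**
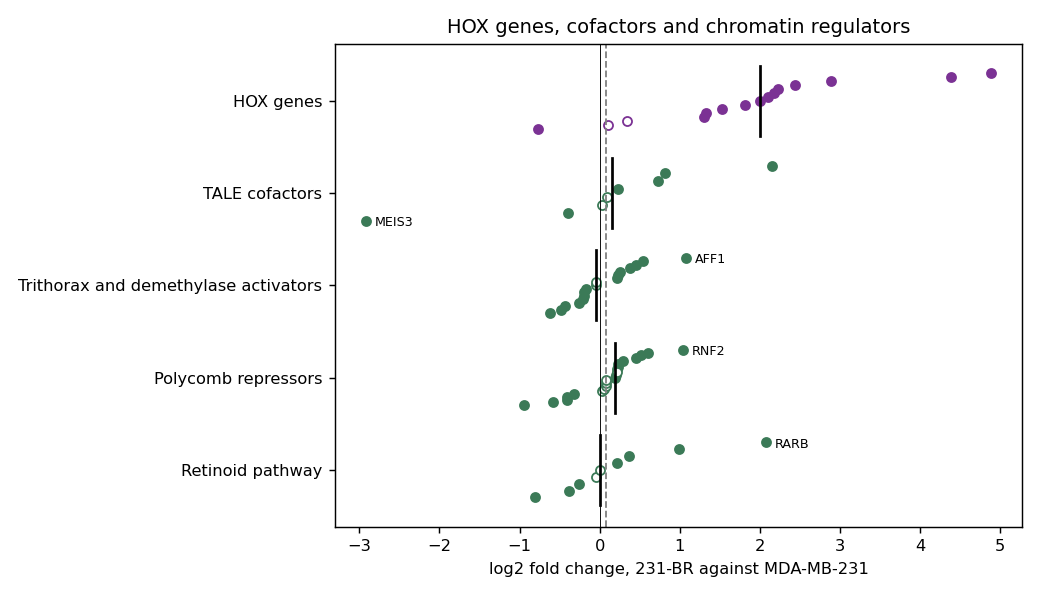
Each dot is the log2 fold change of a tested gene on the log2(FPKM + 0.1) scale, filled where the adjusted p was under 0.05, with a black bar at the median of each list and a dashed line at the median of all genes tested, 0.08. The median is 2.0 for the HOX genes, where HOXB6 is placed by the pseudocount, and lies between -0.05 and 0.19 for the other lists.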

How the data were processed

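The data are RNA sequencing of 3 libraries of 231-BR cells and 3 of the parental line MDA-MB-231. Reads were filtered with SOAPnuke, mapped with HISAT2 2.0.4 to GRCh38.p12 and aligned to a gene set with Bowtie2 2.2.5, per the labels and the study's methods. The deposited values are FPKM with 2 decimals, computed by the authors; the program is not given in the sources used here. Read counts were not used, so the depth is unknown.

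The values were moved to log2(FPKM + 0.1), and genes with a mean of at least 0.1 FPKM (13470) entered a linear model in limma 3.58.1 (R 4.3.3), with eBayes and its trend option. Benjamini-Hochberg adjustment covered all of them. The fit was tested on simulated data. Gene positions, exons and homeoboxes came from GENCODE release 29, a GRCh38 annotation; the homeobox was located by the coded motif WFQNR. Promoter windows came from RefSeq. Figures were drawn with Python 3.11.15 and matplotlib 3.10.9.

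The members and lists were chosen with earlier results of these data known. HOX genes with a mean of at least 1 FPKM in either line are given in every library, other tested ones by their means or libraries. From the other lists, genes that met the study's criteria and TALE genes with a mean of at least 1 FPKM in either line are named. The alternatives were other pseudocounts, filters and scalings, eBayes without trend, a term for the replicate number and each library left out. The values of 1 cofactor gene and some sequences are not reported here.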

Additional observations from a re-analysis of the deposited data

How the results depend on the processing

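The count of 12 higher HOX genes held under the pseudocounts, both scalings, eBayes without trend and every library left out (12 in each), was 13 without a filter on low values and 6 with a filter at a mean of 1 FPKM, which tests 8 HOX genes. Lower genes were 1, and 2 without a filter; HOXC13 and HOXD11, not tested otherwise, were the genes added. The criteria of the study were met by 1 HOX gene under every alternative but a mean of 1 FPKM in either line, which gave 9. Among single HOX genes, HOXD4, which did not pass the test, changed sign after quantile normalization (-0.11, adjusted p = 0.23 from limma); every other HOX gene kept its direction and its side of the threshold where it was tested. Median-of-ratios scaling moved the median of all genes tested from 0.08 to 0.00 and quantile normalization to -0.06, and the share of higher among all called genes from 57.4% to 50.3% and 45.7%. With the filter at 1 FPKM, 2 TALE genes rose and 1 fell, and after quantile normalization 2 rose and 5 retinoid genes fell. After quantile normalization the sums in 231-BR and parental cells were 20.49 and 4.68 FPKM for HOXB, 7.32 and 2.26 for HOXC and 7.55 and 8.12 for HOXD, so that HOXD was then the lower in 231-BR cells. Median-of-ratios scaling gave 21.16 for HOXB and 8.0 for HOXC in 231-BR cells. Leaving out a library for the sums was chosen after seeing the data.

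The replicate numbers are not said to pair the libraries. Deviations of same-numbered libraries correlated at 0.087, -0.040 and -0.106, and those of differently numbered libraries at -0.154 to 0.183. Such weak correlations cannot decide whether the cultures were handled in pairs. With the replicate block, 12 HOX genes rose and 1 fell, as without it. For any 1 gene, the smallest p of a 2-sided exact permutation test on 3 and 3 libraries is 0.1. The depth is unknown, and genes near 0 FPKM rest on few reads.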
